A study of Mus musculus with 32 samples.

Results

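Macrophages (MΦs) sorted from mouse islets were compared between 1 week of doxycycline (1wk Dox) and no doxycycline (No Dox). The comparison holds 6 of the 32 samples of the series, 4 at No Dox and 2 at 1wk Dox, chosen by their labels and not by any measured value. The other samples are β cells, endothelial cells (ECs) and the MΦs taken 1 week after doxycycline was withdrawn (1wk WD). All mice, the No Dox controls included, carried the transgenes MIP-GFP, RIP-rtTA and TetO-VEGF-A. The rat insulin promoter (RIP) drives a doxycycline-dependent activator in β cells, which turns on human VEGF-A, and the mouse insulin promoter (MIP) marks β cells with GFP. The mice were 8 to 16 weeks old, the 1wk Dox mice drank doxycycline for 1 week, and the No Dox mice had none. Islets of more than 1 mouse went into each sample, and the MΦs were collected as CD11b+ cells from islet cells also labelled for CD31, a surface protein by which the ECs were separated. That gate also takes monocytes, neutrophils and some dendritic cells.

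Islet MΦs are the main resident phagocytes of the islet, where they take up dying cells and insulin granule material. VEGF-A made by β cells acts mainly on ECs through the receptor VEGFR2, whereas monocytes and MΦs sense it through VEGFR1. In this model VEGF-A excess is known to expand the islet ECs, to be followed by loss of β cells and to bring circulating monocytes into the islet. MΦs that clear dying cells and red cells use Fc and complement receptors for uptake, lysosomal enzymes for digestion, and heme oxygenase and ferroportin to handle the heme and iron set free.

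The values are scores, the authors' normalized expression per gene, with 1 as the lowest. Where 4 scores and then 2 are given, they are No Dox samples 1 to 4 and 1wk Dox samples 4 and 5, numbered as in the labels. The MΦ markers were in place. Csf1r, the receptor for the MΦ growth factor CSF1, scored 38674 to 65946 at No Dox and 78271 and 88375 at 1wk Dox, against at most 3040 in any β cell or EC sample. Mrc1, the mannose receptor, scored 38848 to 56747 at No Dox and 69073 and 78647 at 1wk Dox. Neither gene passed the test (adjusted p = 0.109 for Csf1r and 0.0681 for Mrc1). Itgam, which encodes the sorted protein CD11b, lay between 29382 and 45478 at No Dox and at 21379 and 22708 at 1wk Dox (adjusted p = 0.07), below every No Dox sample. Of 14 MΦ markers, 3 rose (Fcgr1, C1qb and C1qc) and none fell, and their summed score was 321135 to 429190 at No Dox and 527365 and 645002 at 1wk Dox. The 12 monocyte markers summed to 51266 to 57847 at No Dox and to 49667 and 51877 at 1wk Dox, and none of them was called by limma (2 had an unadjusted p under 0.05, which 21.5% of all genes tested had).

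The No Dox samples also held transcripts of pancreatic acinar cells, the enzyme-secreting cells that surround the islet. The summed score of 12 acinar markers was 113297, 12982913, 30491 and 2233590 in No Dox samples 1 to 4, and 1147 and 3890 in the 1wk Dox samples. In No Dox sample 2 these 12 genes made up 24.3% of all scores, in No Dox sample 4 they made up 6.0%, and in the 1wk Dox samples 0.00337% and 0.0118%. All 12 had a lower mean at 1wk Dox and 6 were called. Endothelial markers summed to 2657 to 3675 at No Dox and to 3946 and 4801 at 1wk Dox. Summed β cell markers ranged from 1975 to 47759 at No Dox and were 8203 and 18153 at 1wk Dox, and the groups overlapped. In such bulk samples more cells of a type and more RNA per cell cannot be told apart.

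**Figure D1:**
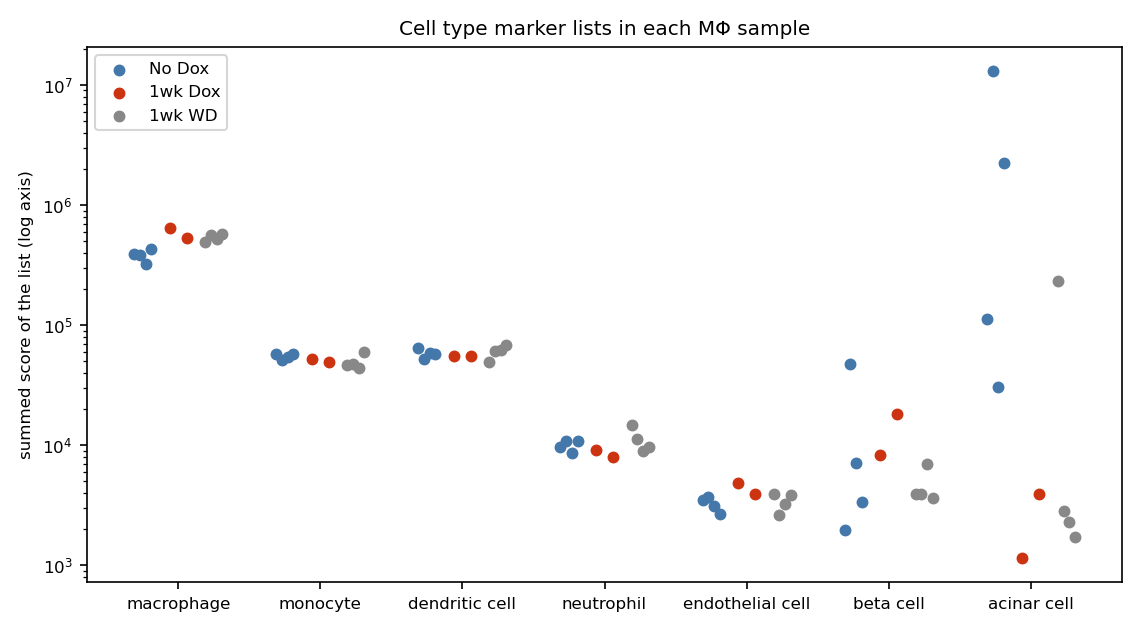
Summed score of 7 cell type marker lists (log axis) in each MΦ sample, for 4 No Dox, 2 1wk Dox and 4 1wk WD samples. MΦ markers summed to 527365 and 645002 in the 1wk Dox samples, and acinar markers spanned 30491 to 12982913 at No Dox.

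Of 14867 genes with a mean score of 20 or more in either group, 346 (2.33%) changed by 2-fold or more at an adjusted p under 0.05. Of these, 246 rose (1.65% of genes tested) and 100 fell (0.673%). Counts of called genes in the lists that follow are to be read against these shares. The median log2 fold change of all genes tested was 0.03. In all 346 genes both 1wk Dox samples were above or below each of the 4 No Dox samples, which held for 31.1% of all genes tested. The calls were made on these same samples, so this is no separate support for them. A 2-fold change at an unadjusted p under 0.05 was seen in 980 genes (6.59%). The most firmly separated genes were the heme-degrading enzyme Hmox1 and the junction protein F11r, with the same adjusted p of 0.000809. They were followed by the collagenase Mmp13, the surface receptor Cd93 and the semaphorin Sema6d, each at an adjusted p of 0.000996.

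**Figure D2:**
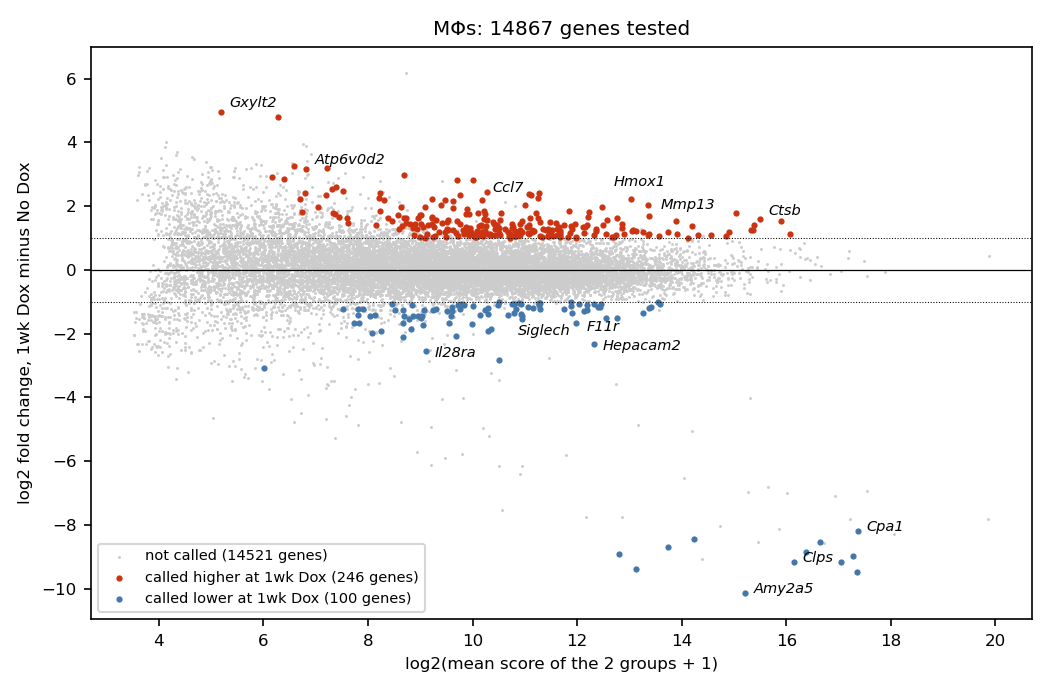
Log2 fold change (1wk Dox minus No Dox) of 14867 genes against the log2 mean score of the 2 groups, with the 246 genes called higher in red and the 100 called lower in blue. Dotted lines mark a 2-fold change, and the cluster at the lower right holds acinar enzymes such as Amy2a5 and Cpa1.

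The calls rested on few samples. The 4 1wk WD samples took no part in the fold changes but shared the estimate of the spread, and without them 38 genes were called, all among the 346. Without 1wk Dox sample 4 no gene was called (426 had a 2-fold change at an unadjusted p under 0.05), and without 1wk Dox sample 5 there were 49. Of the 102 called genes that stand in a pathway list, 14 were called with the 6 samples alone. The direction was the same for all 346 genes in each of these fits. In 212 of the 246 genes that rose, sample 4 scored above sample 5.

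Genes for heme and iron handling included Hmox1, the rise with the lowest adjusted p. Hmox1, the enzyme that opens the heme ring, scored 2466, 3422, 2531 and 3270 at No Dox and 15859 and 11589 at 1wk Dox. Both 1wk Dox samples were thus above 3 times any No Dox sample, with a log2 fold change of 2.23 ± 0.21 (SE). The 4 1wk WD samples scored 4163 to 6101. Slc40a1, which encodes the iron exporter ferroportin, scored 1877, 2459, 4332 and 1996 at No Dox and 7577 and 5344 at 1wk Dox (log2 fold change 1.34 ± 0.32, adjusted p = 0.0371). Spic, the transcription factor of iron-recycling MΦs, scored 544, 1118, 1903 and 1002 and then 3837 and 3360 (1.79 ± 0.37, adjusted p = 0.0206). Ftl1, the ferritin light chain, and Slc48a1, which carries heme out of the lysosome, rose by 1.26 and 1.44 on the log2 scale. These were 5 of 23 genes tested, none fell, and the median of the list was 0.55. Cd163, the receptor for hemoglobin bound to haptoglobin, scored 6247 to 8777 at No Dox and 7761 and 7059 at 1wk Dox (log2 fold change 0.00). Erythroid markers were at low scores in both groups, with hemoglobin Hbb-b1 at 13, 75, 19 and 237 and then at 334 and 96. Of 6 erythroid markers tested 4 were higher by 2-fold or more, against 8.85% of all genes tested, and none was called. Their median log2 fold change was 1.4 (2.36 without No Dox samples 2 and 4). Of the 5 genes only Hmox1 was called with the 6 samples alone.

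Redox genes overlapped this group. Of 36 antioxidant and redox genes 6 rose and none fell, with a median of 0.30. Besides Hmox1 they were Gclm, a subunit of the enzyme that limits glutathione synthesis, the peroxiredoxin Prdx1, the sulfiredoxin Srxn1, the phospholipid peroxidase Gpx4, and Cyba, a subunit of the NADPH oxidase. Gclm scored 1131, 1468, 1672 and 1295 at No Dox and 3345 and 3083 at 1wk Dox (log2 fold change 1.22 ± 0.21, adjusted p = 0.0108). Prdx1 scored 3683, 5530, 5827 and 5347 and then 14055 and 10012. Srxn1 scored 1057, 1218, 1432 and 969 and then 3042 and 2259. In all 3 genes the groups did not overlap, but of the 6 genes Hmox1 alone was called with the 6 samples alone. Nfe2l2, the transcription factor NRF2 that drives many of these genes, scored 13384 to 21518 at No Dox and 22737 and 22888 at 1wk Dox and was not called (0.51, adjusted p = 0.135).

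Most lysosomal genes had a higher mean at 1wk Dox, by less than 2-fold in the majority. Of 44 hydrolases and cathepsins 38 had a higher mean at 1wk Dox, against 52.3% of all genes tested. In 30 both 1wk Dox samples were above all No Dox samples (16.2% of all genes tested), and 6 were called higher (1.65%). The median of the list was 0.64. Ctsb, which encodes cathepsin B, scored 21499, 22660, 21712 and 26316 at No Dox and 79830 and 60112 at 1wk Dox, a log2 fold change of 1.59 ± 0.17 (adjusted p = 0.00131). Ctsd, cathepsin D, scored 20842, 27532, 21163 and 28041 and then 63408 and 52169 (1.25 ± 0.22, adjusted p = 0.0108). Acp5, the tartrate-resistant acid phosphatase, rose from 397 to 981 at No Dox to 2567 and 2023. Cd63, Ctsz and Naglu were the others called. Among 18 subunits of the V-ATPase, the proton pump that acidifies the lysosome, 2 rose. They were Atp6v0b (1.09) and Atp6v0d2, which scored 37, 27, 6 and 30 at No Dox and 180 and 217 at 1wk Dox.

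Of 27 genes of lipid-laden MΦs 10 rose and none fell, with a median of 0.98. Of the 10, 3 (Ctsb, Ctsd and Cd63) are also in the lysosomal list, and 2 (Ctsb and Lpl) were called with the 6 samples alone. Lpl, lipoprotein lipase, scored 2823, 3119, 3481 and 2776 at No Dox and 9151 and 8982 at 1wk Dox (1.58 ± 0.18, adjusted p = 0.00151). Its 1wk WD samples were at 3510 to 5531. Lgals3, galectin 3, scored 4244, 4169, 5123 and 5637 and then 11556 and 9213 (1.12 ± 0.20, adjusted p = 0.0124). Fabp5, a fatty acid carrier, was at 90, 228, 54 and 131 and then at 524 and 488. Tyrobp, the signaling adaptor of the lipid receptor TREM2, rose by 1.01. Trem2 itself had an adjusted p of 0.0205 at 0.98, just under 2-fold, with scores of 1540, 1823, 1791 and 2407 and then 4282 and 3176. Gpnmb, which had the largest log2 fold change of the list at 2.45, scored 183, 78, 70 and 78 and then 525 and 515 and was not called (adjusted p = 0.0958). Cd9 lay in the other direction, at 2437 to 3381 and then at 1457 and 1506 (log2 fold change -0.92, adjusted p = 0.0205). Apoe overlapped between the groups. Nr1h3, the sterol-sensing receptor LXRα, rose (1.63, adjusted p = 0.0179). It was the only one called of 17 genes for cholesterol efflux and LXR targets, whose median was 0.16.

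**Figure D3:**
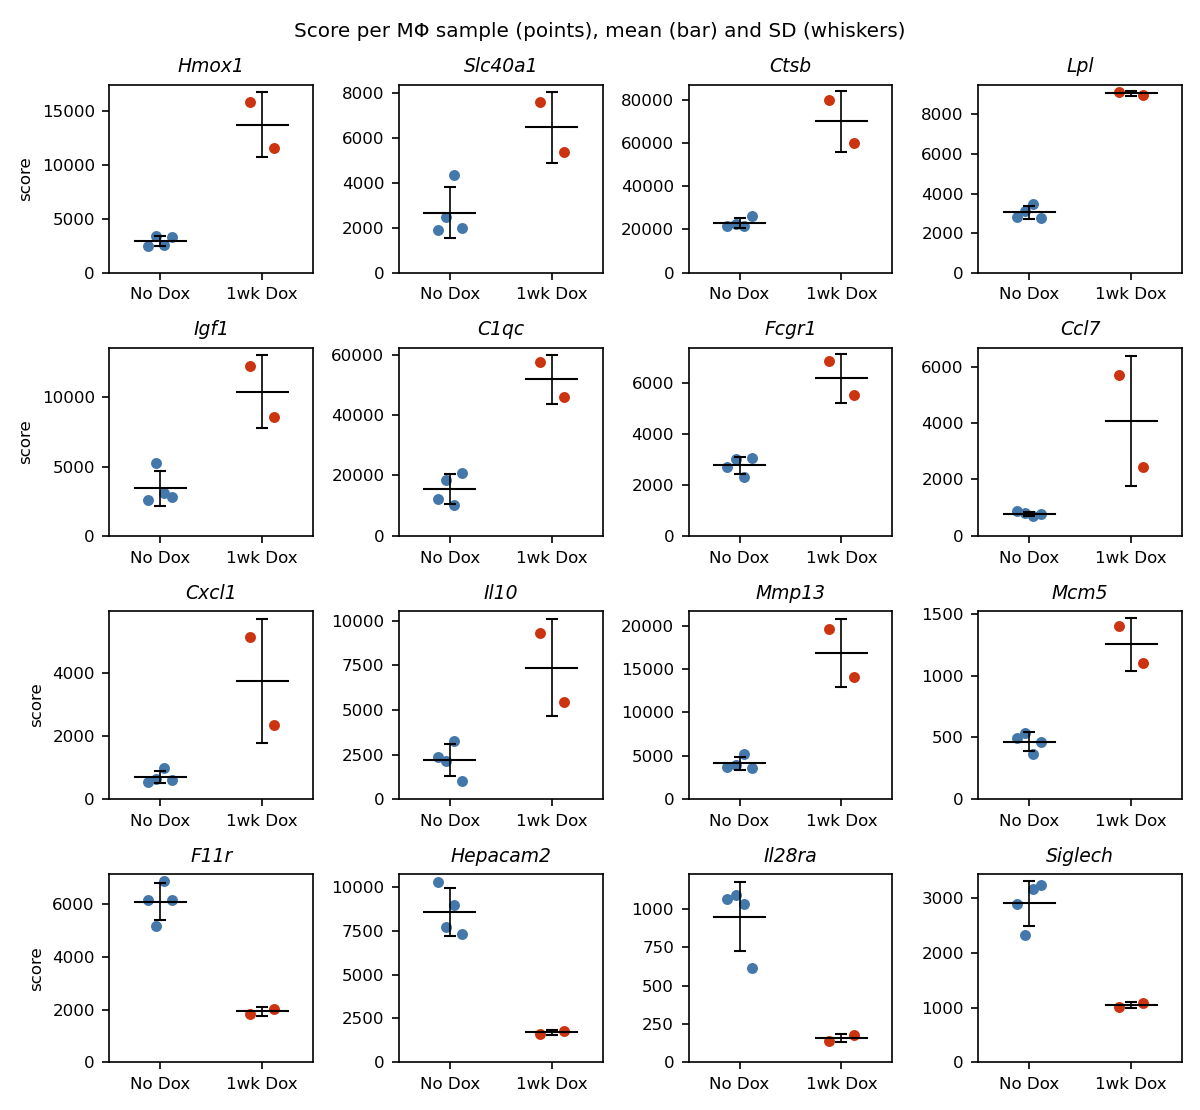
Scores of 16 genes in each MΦ sample (points) at No Dox (4 samples) and 1wk Dox (2 samples), with the mean (bar) and the SD (whiskers). In the first 12 panels both 1wk Dox samples were above all No Dox samples, and in the last 4 (F11r, Hepacam2, Il28ra and Siglech) both were below.

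Among receptors for antibody and complement genes, 8 of 27 rose, none fell and the median was 0.98. The activating Fc receptor Fcgr1 scored 2694, 3016, 2309 and 3046 at No Dox and 6867 and 5516 at 1wk Dox (1.16 ± 0.16, adjusted p = 0.00406). Fcgr3 (1.22) and the shared signaling chain Fcer1g (1.18) rose by like amounts. Among complement genes, the C1q chains C1qb and C1qc start the classical pathway. C1qc scored 12261, 18479, 10385 and 20685 and then 57424 and 46080 (1.79 ± 0.24, adjusted p = 0.00406). C1qb scored 20480, 25549, 15678 and 32970 and then 69084 and 54234 (1.42 ± 0.24, adjusted p = 0.0102). C1qa, the third chain, scored 894 to 7958 and then 9863 and 5878, so its groups overlapped (adjusted p = 0.297). Cfp, properdin, which stabilises the alternative pathway convertase, rose by 1.45. Cfb and C2, which supply the proteases of the convertases, scored at most 79 at No Dox and 266 to 339 at 1wk Dox. These 2 genes overlap each other and Gm20547 on chromosome 17 (mm9, 34993319 to 35035210, minus strand), so their reads cannot be assigned with certainty and they are not independent. Fcgr1, Fcgr3 and Cfp were also called with the 6 samples alone.

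Receptors for uptake and sensing changed in part. Of 33 scavenger and apoptotic-cell genes 4 rose, against 1.65% of all genes tested. They were Msr1 (1.22), the oxidized-lipid receptor Stab1 (1.05), the lectin Clec4a2 (1.37) and Gas6, the bridge between dying cells and the MΦ receptor MerTK (1.85 ± 0.37, adjusted p = 0.0189). Gas6 scored 596, 864, 241 and 502 at No Dox and 2162 and 1508 at 1wk Dox. Mertk itself scored 7691 to 10018 and then 11085 and 11884 (0.41, adjusted p = 0.162). Of 27 pattern recognition receptors and adaptors 3 rose (Clec4n, Tlr12 and the adaptor Myd88), against the same 1.65%. The sialic acid receptor Siglec1, in no list, scored 4811, 4236, 3016 and 3857 and then 12368 and 9216 (1.44 ± 0.19, adjusted p = 0.00382).

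Among chemokines 7 of 27 were called higher and none lower, and the median was 1.04 (0.99 without No Dox samples 2 and 4). Ccl7, a monocyte attractant that signals through the receptor CCR2, scored 871, 825, 705 and 763 at No Dox and 5712 and 2456 at 1wk Dox (2.25 ± 0.29, adjusted p = 0.00326). The neutrophil attractant Cxcl1 scored 560, 632, 993 and 611 and then 5148 and 2366 (2.36 ± 0.40, adjusted p = 0.0102). In both genes the 1wk Dox samples were over 2-fold apart. The T cell attractants Ccl5 (1.30) and Cxcl9 (1.66) rose. Pf4, which is also made by platelets, scored 853, 1176, 322 and 799 and then 5630 and 2641 (2.43 ± 0.41, adjusted p = 0.0102). Its platelet neighbour Ppbp was near the lowest score at No Dox, at 4, 1, 1 and 32, and was at 111 and 176 at 1wk Dox. Among 16 chemokine receptors Ccr7, which guides migration to lymph nodes, was the one called, at 3315, 1308, 1355 and 973 and then at 5487 and 5672. Ccr2, the receptor for Ccl7, scored 16941 to 24024 and then 17470 and 14586 (-0.39, adjusted p = 0.394). Ccl5, Ccl7 and Cxcl1 were called with the 6 samples alone.

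Cytokine genes of opposite roles rose side by side. Of 27 tested 5 rose and 1 fell. Il10, which restrains inflammation, scored 2374, 2127, 3243 and 1032 at No Dox and 9282 and 5427 at 1wk Dox (1.81 ± 0.39, adjusted p = 0.0248). Tnf, which promotes it, scored 5176, 6267, 7279 and 7358 and then 18758 and 10721 (1.14 ± 0.26, adjusted p = 0.0311). Il1rn, the antagonist of the IL-1 receptor, rose by 1.19, Csf1, the MΦ growth factor, by 1.11, and the lymphotoxin Ltb by 1.74. Tnfsf13b, the B cell factor BAFF, fell, from 1612, 1404, 2003 and 1776 to 644 and 775 (-1.25 ± 0.20, adjusted p = 0.00923). Il6 scored 51 to 97 and then 411 and 196 and was not called (1.85, adjusted p = 0.0645). None of these 6 called genes passed with the 6 samples alone.

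Most interferon-stimulated genes had a slightly higher mean at 1wk Dox, but few passed the test. Of 34 tested 33 had a higher mean at 1wk Dox, against 52.3% of all genes, and 19 had both 1wk Dox samples above all No Dox samples, against 16.2% of all genes. Of the 34, 5 were called, Irf7, Bst2, Rtp4, Gbp2 and Cmpk2, and none of these was called with the 6 samples alone. The transcription factor Irf7 scored 671, 647, 511 and 872 and then 1995 and 1514 (1.39 ± 0.23, adjusted p = 0.0101). The guanylate-binding protein Gbp2 scored 499 to 1003 and then 1955 and 1965, and its 1wk WD samples reached 3225. MHC class II genes, in contrast, gave no call in 16, and their median was 0.12. H2-Ab1 scored 224262 to 264928 at No Dox and 238817 and 238025 at 1wk Dox. At an unadjusted limma p under 0.05 there was 1 gene of the 16, against 21.5% of all genes tested. H2-Ob, which tempers peptide loading, scored 4028 to 5048 and then 2275 and 2339 (-0.97, adjusted p = 0.0103), short of 2-fold.

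Of 34 growth factor genes, whose median was 0.49, 5 rose, against 1.65% of all genes tested. Igf1 scored 2586, 5271, 3063 and 2793 at No Dox and 12258 and 8551 at 1wk Dox (1.64 ± 0.28, adjusted p = 0.0102). Grn, progranulin, scored 13527, 12951, 10177 and 15140 and then 30582 and 24501. Pdgfc, Gdf3 and Gdf15 were the others, and none of the 5 was called with the 6 samples alone. Of the insulin-like growth factor binding proteins, Igfbp4 scored 376, 332, 371 and 470 and then 1854 and 1151 (1.92 ± 0.22, adjusted p = 0.00169). Sema6d, a guidance molecule that can bind plexins, scored 1007, 970, 604 and 694 and then 3470 and 3077 (2.03 ± 0.21).

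Matrix-degrading enzymes rose at 2 genes of 41, against 1.65% of all genes tested. Mmp13, collagenase 3, scored 3688, 3940, 5226 and 3611 at No Dox and 19661 and 14086 at 1wk Dox (2.03 ± 0.20), with the 1wk WD samples at 6624 to 9908. Plau, the urokinase plasminogen activator, rose by 1.20. Adam12 had a larger log2 fold change, 3.50, at scores of 161, 44, 19 and 4 and then 428 and 253, and was not called (adjusted p = 0.0776). Adamdec1, at 6, 41, 1 and 15 and then 103 and 94, was not called either. Mmp9 overlapped between the groups. Vcam1, the ligand of the integrin VLA-4, scored 4759, 3745, 7484 and 4822 and then 16233 and 15948 (1.68 ± 0.23, adjusted p = 0.00406), and its 1wk WD samples were as high, at 15724 to 22425.

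Of 40 genes for matrix proteins and proteoglycans, whose median was 0.85, 2 rose (Col4a1 and the syndecan Sdc3), against 1.65% of all genes tested. Some genes that rose are also abundant in ECs. Col4a1, the basement membrane collagen chain, scored 380, 287, 277 and 201 at No Dox and 1664 and 1223 at 1wk Dox (2.35 ± 0.51, adjusted p = 0.0249). The single 1wk Dox EC sample scored 135553, and the MΦ mean was 1.06% of that. Igfbp7 scored 490, 541, 263 and 287 and then 2203 and 1930, or 0.827% of the EC score. Erg, an endothelial transcription factor, scored 29 to 43 and then 219 and 153, or 0.699%. Of the defining EC markers, Cdh5 (VE-cadherin) scored 57, 77, 2 and 4 and then 255 and 154, or 0.379% of the EC score. Emcn (endomucin) scored 44, 120, 27 and 28 and then 686 and 370, or 0.302%. Of 11 EC markers tested 9 had a higher mean at 1wk Dox, against 52.3% of all genes tested. The 1 called was Vwf, which fell (1353, 1365, 685 and 798 and then 392 and 427). Cd93 scored 9675 to 11553 at No Dox and 29079 and 25367 at 1wk Dox, which is 15.4% of the EC score. For Igfbp4 the 1wk Dox EC sample scored 936, below both 1wk Dox MΦ samples. ECs were separated from the MΦs in the sort by CD31, and the part of any remaining EC transcripts in the rise of these genes was not tested.

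No VEGF ligand or receptor gene was called by limma. The mouse Vegfa gene, which does not measure the human transgene, scored 288, 872, 352 and 422 at No Dox and 530 and 618 at 1wk Dox (0.38, adjusted p = 0.614). Flt1, which encodes VEGFR1, scored 626, 541, 610 and 470 and then 768 and 582 (0.26, adjusted p = 0.599). Kdr, which encodes VEGFR2, was at 189, 236, 80 and 76 and then at 373 and 223, or 0.383% of the 1wk Dox EC score (log2 fold change 1.16, adjusted p = 0.279). Nrp1, the most highly scored VEGF co-receptor in these cells, scored 5527, 3599, 4320 and 4567 and then 7055 and 6148, above every No Dox sample but short of the threshold (0.57, adjusted p = 0.12). Of the 10 genes 3 had a fold change of 2 or more upwards, against 8.85% of all genes tested, and 1 downwards, and the median log2 fold change was 0.7. The extremes were Flt4, which encodes VEGFR3, at 144, 6, 19 and 11 and then at 142 and 110 (2.50, adjusted p = 0.232), and the lymphatic growth factor Vegfc at 411, 289, 203 and 233 and then at 63 and 151 (-1.48, adjusted p = 0.123). At an unadjusted limma p under 0.05 there were 4 of the 10, against 21.5% of all genes tested.

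Cell cycle genes gave 12 calls of 51, all higher. Their median was 0.93, and 31 had both 1wk Dox samples above all No Dox samples (16.2% of all genes tested). The replication licensing gene Mcm5 scored 497, 539, 365 and 466 at No Dox and 1406 and 1104 at 1wk Dox (1.43 ± 0.22, adjusted p = 0.00769). Mki67, which marks cells in cycle, scored 8625, 7880, 12226 and 5586 and then 21479 and 16200 (1.18 ± 0.26, adjusted p = 0.0263). The mitotic cyclin Ccnb1 scored 53, 55, 28 and 50 and then 324 and 168 (2.35 ± 0.46, adjusted p = 0.0183). The spindle factor Tpx2 (2.24), the ubiquitin enzyme Ube2c (1.97) and the transcription factor Foxm1 (1.58) rose as well. The rise covered genes of DNA replication (Mcm2, Mcm5, Mcm7 and Rrm1) and of mitosis (Ccnb1, Kif11, Nusap1 and Tpx2). Stmn1, a microtubule regulator in no list, scored 519, 550, 444 and 466 and then 1975 and 1450 (1.78 ± 0.21, adjusted p = 0.00169). None of the 12 was called with the 6 samples alone. Without No Dox samples 2 and 4 the median was 0.69.

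Housekeeping groups were higher by less than 2-fold in most members. Of 74 subunits of oxidative phosphorylation, whose median was 0.62, 69 had a higher mean and 7 were called higher. Of all genes tested, 52.3% had a higher mean and 1.65% were called higher. The complex IV subunit Cox5a scored 210, 345, 394 and 534 and then 1147 and 835. Of 78 ribosomal protein genes, whose median was 0.51, 72 had a higher mean and 4 were called higher, against the same 52.3% and 1.65%. Without No Dox samples 2 and 4, which held the most acinar transcripts, these medians were 0.97 and 0.91. The same omission moved the median to 0.78 for growth factors and to 0.2 for MHC class II genes. It was 0.51 for antioxidant and redox genes and for cholesterol efflux and LXR targets. Ribosomal protein genes have near-identical pseudogene copies, which makes their scores less certain. Gene length moved with the change. The median log2 fold change was 0.25 in the quartile of genes with the shortest transcripts and -0.11 in the longest quartile, and 101 and 28 genes of these length groups were called higher, against 23 and 24 called lower. The shortest quartile less the longest, as the median deviation from each gene's mean, was -0.33, -0.02, -0.28 and 0.07 in the No Dox samples and 0.28 and 0.14 in the 1wk Dox samples. The lowest of these values were those of No Dox samples 1 and 3, the samples kept when No Dox samples 2 and 4 were left out. That omission thus changed both acinar transcripts and the balance of transcript lengths. The part of each in the medians and in the calls was not tested. Glycolytic Gapdh (1.04) and Eno1 (1.18) rose and were the only 2 called of 44 hypoxia and glycolysis genes, whose median was 0.12 (0.23 without No Dox samples 2 and 4). Slc2a3, a glucose carrier, was lower in both 1wk Dox samples (1352 and 1525 against 2133 to 2796) by less than 2-fold.

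The list of MΦ transcription factors and genes of the CSF1 axis gave 4 calls of 36. Tfec, a factor of the family that controls lysosomal genes, scored 672, 695, 1271 and 359 at No Dox and 4312 and 2859 at 1wk Dox (2.37 ± 0.39, adjusted p = 0.0102). Spic, Nr1h3 and the ligand Csf1 were the others. Irf4 scored 8791 to 12667 and then 5491 and 6031 (-0.86, adjusted p = 0.0191). Of 25 genes of alternative activation, whose median was 0.30, 4 rose (Il10, Ptgs1, Tgm2 and Pdcd1lg2), against 1.65% of all genes tested. Nos2, which makes nitric oxide, scored 46 to 106 and then 131 and 81. None of the 17 genes of arginine and nitric oxide metabolism was called by limma, and 1 had an unadjusted p under 0.05 (21.5% of all genes tested). Immediate early and heat shock genes, which rise when cells are stressed in isolation, gave 1 call of 27, Ier3 (1.49), and a median of 0.16. Among the remaining lists 1 gene was called in each of NF-κB (Nfkb2), cholesterol synthesis (Ebp), prostaglandin (Ptgs1) and unfolded protein (Sdf2l1) genes, and their medians lay between 0.06 and 0.19 (0.05 to 0.38 without No Dox samples 2 and 4).

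**Figure D4:**
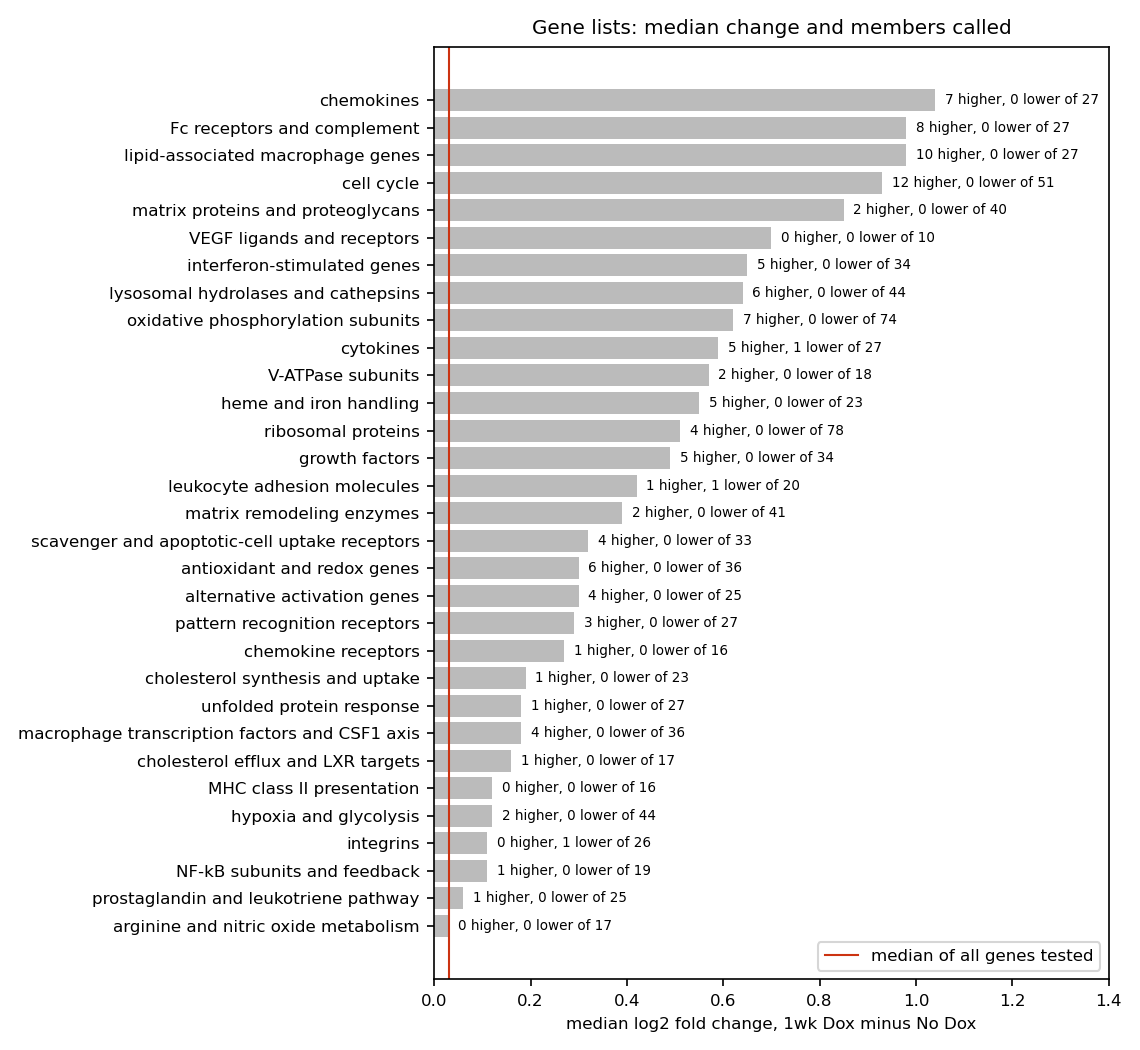
Median log2 fold change (1wk Dox minus No Dox) of 31 gene lists, with the members called higher and lower out of those tested. The chemokine median was 1.04 with all 4 No Dox samples, and the red line marks the median of all genes tested (0.03).

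The genes that fell most were acinar enzymes. Of the 15 with the largest fall 12 were secreted digestive enzymes or granule proteins, from Amy2a5 (log2 fold change -10.14) to Cpa1 (-8.18). Amy2a5 scored 3779, 236100, 3191 and 60183 at No Dox and 2 and 107 at 1wk Dox. The 4 Amy2a genes are near-identical copies, so reads may be shared among them. With No Dox samples 2 and 4 left out Amy2a5 was no longer called (adjusted p = 0.0619), and of these 12 genes Amy2a2 alone was (adjusted p = 0.0434).

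The other 3 genes among the 15 largest falls were 4430402I18Rik, Il31ra and Il28ra. 4430402I18Rik scored 127, 89, 208 and 39 at No Dox and 9 and 13 at 1wk Dox (-3.07 ± 0.69, adjusted p = 0.0283). Il31ra, the IL-31 receptor chain, scored 2960, 5171, 382 and 2049 and then 287 and 242 (-2.82 ± 0.74, adjusted p = 0.0495), so its No Dox samples were widely spread. Several genes with a smaller fall had No Dox scores that lay closer together. F11r, the junction adhesion molecule JAM-A, scored 6179, 5175, 6892 and 6181 at No Dox and 1825 and 2048 at 1wk Dox (-1.65 ± 0.16, adjusted p = 0.000809). Hepacam2, an immunoglobulin-family adhesion protein, scored 10272, 7698, 8968 and 7305 and then 1612 and 1806 (-2.31 ± 0.28, adjusted p = 0.00169). Il28ra, the interferon lambda receptor chain, scored 1065, 1088, 1028 and 617 and then 139 and 179 (-2.55 ± 0.35, adjusted p = 0.00406). Il1rl1, the IL-33 receptor, scored 17076, 11813, 17177 and 10676 and then 5060 and 5941 (-1.34 ± 0.25, adjusted p = 0.0135). Itgb8, the integrin chain that activates TGF-β, scored 739, 471, 657 and 607 and then 151 and 238, and was the only one called of 26 integrins. Ifngr1, the interferon gamma receptor chain, scored 13231 to 18229 and then 7766 and 7978 (-1.01 ± 0.16, adjusted p = 0.00864). St3gal5, the enzyme of ganglioside GM3 synthesis, and the translation factor Eif4a2 fell by 1.53 and 1.52 on the log2 scale. F11r, Hepacam2, Il28ra, St3gal5 and Eif4a2 were also called with the 6 samples alone.

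Dendritic cell genes did not move one way. Siglech, a marker of plasmacytoid dendritic cells, scored 2891, 2339, 3174 and 3248 at No Dox and 1010 and 1091 at 1wk Dox (-1.46 ± 0.22, adjusted p = 0.0079). Flt3, the growth factor receptor of dendritic cells, scored 5443 to 7609 and then 2978 and 3479 (-0.97, adjusted p = 0.0102), just short of 2-fold. Ccr7 rose, as did Fscn1, the actin bundler of mature dendritic cells, at 623, 302, 185 and 104 and then 1922 and 1563 (2.81 ± 0.52, adjusted p = 0.0135). Over the 12 dendritic cell markers the summed score was 52304 to 65015 and then 54985 and 55277, with 1 called in each direction. Cd4, which MΦs and dendritic cells can also carry, was the only one called of 11 T or NK cell markers tested. Cd3e, which encodes a CD3 chain of the T cell receptor complex, scored 9 to 154 and then 11 and 18.

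Several of the largest rises were at low scores. Gxylt2, a xylosyltransferase, was at or near the lowest score at No Dox (1, 2, 1 and 1) and at 84 and 56 at 1wk Dox (adjusted p = 0.0249). The relaxin-family gene Insl6 scored 45, 15, 42 and 20 and then 273 and 255. The serotonin receptor Htr7 scored 216, 70, 152 and 27 and then 648 and 763. Cacnb3, a calcium channel subunit, scored 335, 322, 131 and 122 and then 1315 and 1574 (2.81 ± 0.43, adjusted p = 0.00769). Pla2g4f, a phospholipase of the A2 group, scored 15, 32, 8 and 33 and then 152 and 135 (2.85 ± 0.64, adjusted p = 0.027). Olfr558 and Cxx1a were called at No Dox scores of 34 or less. The log2 fold change of Gxylt2 was 4.97 with 1 added before the logarithm and 2.07 with 20 added, where it was no longer called, whereas that of Cacnb3 was 2.81 and 2.69.

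Promoter sequences from RefSeq (GRCm38.p6) were matched by Ensembl gene identifier, or by symbol where that gave no match. They matched 161 of the 246 genes called higher and 67 of the 100 called lower. With under 80% of the genes matched, a comparison of motif shares between these groups is void. The 250 bases before the transcript start are shown for 4 genes that rose, chosen after their values were seen. Capitals mark a match, on either strand, to the NF-κB motif (Csf1 and Ltb), to the interferon-stimulated response element (Bst2, 2 overlapping matches) or to the AP-1 motif TGANTCA (Srxn1). Over all 32851 windows of the table, 0.14% held the NF-κB motif, 2.98% the interferon element and 6.75% the AP-1 motif. Some genes that fell held matches too. Tnfsf13b had the AP-1 motif and the interferon element, and F11r had the AP-1 motif.
Csf1 (chr3:107760470-107760719, minus strand): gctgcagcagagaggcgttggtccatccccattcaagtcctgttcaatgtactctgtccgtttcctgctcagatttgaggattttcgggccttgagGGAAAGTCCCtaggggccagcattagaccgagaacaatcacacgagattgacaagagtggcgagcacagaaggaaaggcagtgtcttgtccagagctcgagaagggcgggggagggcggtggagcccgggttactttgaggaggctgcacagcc
Ltb (chr17:35194257-35194506, plus strand): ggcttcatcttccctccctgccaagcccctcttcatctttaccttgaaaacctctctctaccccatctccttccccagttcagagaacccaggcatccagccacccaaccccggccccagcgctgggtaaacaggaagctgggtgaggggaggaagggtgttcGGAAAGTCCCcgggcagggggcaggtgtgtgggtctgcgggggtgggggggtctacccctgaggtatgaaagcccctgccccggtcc
Bst2 (chr8:71537473-71537722, minus strand): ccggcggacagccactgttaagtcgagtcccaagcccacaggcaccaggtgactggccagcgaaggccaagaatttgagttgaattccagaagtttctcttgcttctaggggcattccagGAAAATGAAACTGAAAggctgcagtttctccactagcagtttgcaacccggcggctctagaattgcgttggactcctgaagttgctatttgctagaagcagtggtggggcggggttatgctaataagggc
Srxn1 (chr2:152105274-152105523, plus strand): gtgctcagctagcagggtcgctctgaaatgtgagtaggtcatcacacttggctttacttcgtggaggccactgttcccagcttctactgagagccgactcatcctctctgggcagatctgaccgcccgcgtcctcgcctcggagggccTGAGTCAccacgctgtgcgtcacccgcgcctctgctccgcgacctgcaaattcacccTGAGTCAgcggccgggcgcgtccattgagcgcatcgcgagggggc
In these 4 genes the scores at 1wk Dox were 1646 and 1202 for Csf1 (852, 761, 483 and 572 at No Dox), 1917 and 1077 for Ltb (517, 304, 735 and 294), 2602 and 1841 for Bst2 (675, 894, 787 and 1303), and 3042 and 2259 for Srxn1. A match of letters is a description and not a measured binding site.

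**Figure D5:**
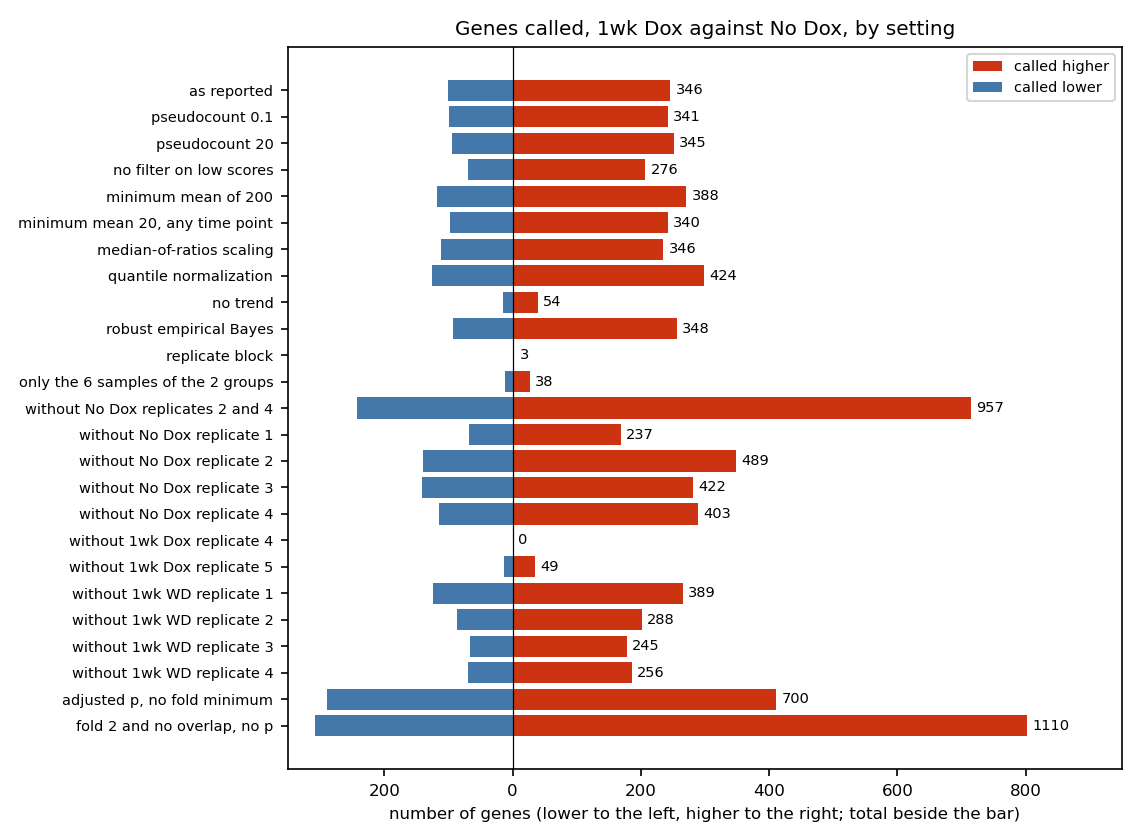
Number of genes called higher (red, right) and lower (blue, left) under each setting of the analysis, with the total beside each bar. The count was 346 as reported, 38 with only the 6 samples compared, and 0 without 1wk Dox sample 4.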

How the data were processed

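MΦs were sorted from islets as CD11b+ cells, and RNA was amplified and sequenced as 50 bp paired-end reads on the Illumina platform. Per the labels and the methods, the authors aligned reads with TopHat2 2.0 to mm9 and normalized expression by TMM with the Avadis NGS software. Values were deposited as scores, that is the authors' normalized expression rounded to whole numbers, lowest 1. They are not counts, so depth per sample is unknown and no counting interval can be given. The gene annotation version is not given in the sources used here. The labels put RNA integrity at 7 or above and the methods at 5 or above.

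Of 38 sample columns 6 belong to another series and were not used, which leaves 2 samples at 1wk Dox. Of the gene symbols 25 that had been turned into dates were restored, and 123 symbols stood on 252 genes. Genes with a mean score of 20 or more at No Dox or 1wk Dox were tested with limma 3.58.1 (R 4.3.3, empirical Bayes with a trend) on log2(score + 1), over all 10 MΦ samples. Fold changes are on that scale and understate the change of low genes. Calls needed a 2-fold change and, after Benjamini-Hochberg adjustment, p under 0.05. Data simulated for this comparison held 14394 genes, 200 of them changed. Of changes of 1.5, 2 and 3 on the log2 scale 47.8%, 67.2% and 87.9% were recovered, with 7 false calls. These rates describe the simulated data alone. Whether they hold for the real samples, which differed in acinar transcripts and in the balance of transcript lengths, was not tested. They are thus no estimate of the false calls among the genes called here. The study calls the samples biological replicates, each pooled from several mice, so p-values measure the spread between such pools.

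The comparison, the gene lists and the marker lists were chosen with earlier results of these data known. Named genes were drawn, not all of them, from the 15 largest rises and falls among called genes without overlap, called list members, MΦ markers, VEGF genes and the 2 largest changes of a list. Cd93, Sema6d, Siglec1, Igfbp4, Stmn1, Hepacam2, Il1rl1, Ifngr1, St3gal5, Eif4a2 and Erg, and list members that were not called, were chosen after their values were seen. Transcript lengths are those of the longest GENCODE M1 transcript on mm9, and promoters are from RefSeq. Alternatives changed the value added, the filter, the scaling, the variance model, the samples and the thresholds.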

Additional observations from a re-analysis of the deposited data

Results flagged for a closer look

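Among 140 named genes, 5 had a No Dox sample whose gap to its nearest neighbour was unusually large for a group of 4 by Dixon's criterion, applied to log2(score + 1). Chance alone gives about 1 in 20 such groups, and 1wk Dox, with 2 samples, could not be examined. Gxylt2 scored 2 in No Dox sample 2 and 1 in the others. Il28ra scored 617 in No Dox sample 4, below the other 3. Ccl5 scored 1839 in No Dox sample 4, above the other 3. Cmpk2 scored 264 in No Dox sample 1 and Ccnb1 scored 28 in No Dox sample 3, each the lowest of its group.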

How the results depend on the processing

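The count of 346 called genes (246 higher, 100 lower) stayed within 1.5 times under both other added values, the 3 other filters, both other scalings and a robust fit, where it ranged from 276 to 424. It moved to 54 (39 and 15) with no trend in the variance, to 38 (27 and 11) with only the 6 samples, to 700 (411 and 289) without a fold minimum, and to 1110 (802 and 308) with a 2-fold change and no overlap but no p. With No Dox samples 2 and 4 left out, an alternative chosen after seeing the data, it was 957 (715 and 242), and 307 of the 346 were among them. Leaving out each sample in turn gave 0 to 489 calls, 0 to 349 higher and 0 to 141 lower. Without 1wk Dox sample 4 there were 0 limma calls and 426 genes at 2-fold and an unadjusted p under 0.05, and without 1wk Dox sample 5 there were 49 (35 and 14). With 1 sample left at 1wk Dox, that sample is assumed to vary like the other groups. No gene was called in all 10 such fits, 46 were called in 9 and 131 in 8. All 346 genes kept their direction in every refit that tested them. Counting each named gene under each alternative, 2182 fold changes kept their side of the threshold, 891 lost their call and 0 reversed. With the replicate number as a block 3 genes were called, 3 higher and 0 lower. The numbers do not pair the samples: No Dox and 1wk Dox share only number 4, and deviations of same-numbered samples correlated between -0.119 and 0.115. The cause of each of these moves was not tested. With the median-of-ratios scaling the median change of all genes was 0.009 against 0.033. At a minimum mean of 200 the mast cell marker list had no gene left and gave no value. Scores without counts leave the precision of low genes unknown.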
